A study of Mus musculus with 10 samples.

Results

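The genes that carry serotonin and the catecholamines through synthesis, storage, recapture and breakdown were followed here by their RNA in lung tumors and liver metastases of 2 mouse models of small cell lung cancer. The genes were taken by symbol from the deposited table, and all 10 were found among its 35288 genes: the hydroxylases Tph1, Tph2 and Th, the decarboxylase Ddc, the dopamine hydroxylase Dbh, the vesicle transporters Slc18a1 and Slc18a2, the serotonin transporter Slc6a4, and the monoamine oxidases Maoa and Maob. The table holds TPM values, which scale reads by transcript length and by library, so that levels of different genes can be set side by side.

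RNA was sequenced from 10 tumor pieces of 6 mice. Nfib-floxed mice (genotype RPR2;Nfibf/f) gave 2 liver metastases and 3 lung tumors, and RPR2 mice gave 2 liver metastases and 3 lung tumors. RPR2 is the name of a model in which Cre deletes floxed alleles of Rb1, Trp53 and Rbl2 to start small cell lung cancer, so both genotypes share those alleles, and the Nfibf/f mice also carry floxed Nfib, the gene of an NFI-family transcription factor. The labels give the genotypes by name only, without the age of the mice, the Cre vector or the cells it reached. Tumors were dissected at morbidity and frozen. Mice JHK1398 and JHK1399 (Nfib-floxed) and JHK1373 and JHK1394 (RPR2) each gave a metastasis and a lung tumor, while JHK997 (Nfib-floxed) and JHK1548 (RPR2) gave a lung tumor only. Each group is therefore 2 or 3 mice, and p-values rest on a spread pooled over the 4 groups, not on that within a group of so few animals. Profiles of log2(TPM + 1) were correlated between libraries across 15503 genes. The JHK1398 metastasis was the only metastasis whose highest value was with a lung tumor. That value was 0.932, for JHK1373's tumor (RPR2), against 0.916 for the JHK1399 metastasis and 0.809 for its own mouse's lung tumor. Low values within a mouse were not particular to it. The JHK1399 metastasis had 0.914 for JHK1373's lung tumor and 0.909 for its own mouse's. The JHK1394 metastasis had 0.771 for its own mouse's. The JHK1398 lung tumor had at most 0.825 with any metastasis. Whether the JHK1398 metastasis carries the right label was not tested. The calls of Slc18a1 and Pts between metastases, and the Slc18a1 interaction, are therefore also given without it.

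The serotonin branch starts when a tryptophan hydroxylase makes 5-hydroxytryptophan, and the catecholamine branch starts when tyrosine hydroxylase makes L-DOPA; both hydroxylases need tetrahydrobiopterin as a cofactor. Ddc then decarboxylates either product, to serotonin or to dopamine. A vesicular monoamine transporter loads the amine into dense-core vesicles or synaptic vesicles, the plasma membrane transporter takes released serotonin back up, and the monoamine oxidases of the outer mitochondrial membrane break amines down. Pulmonary neuroendocrine cells store serotonin in dense-core vesicles, and L-DOPA decarboxylase activity is a classical marker of small cell lung cancer.

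Of the 10 genes, 8 had a promoter in the RefSeq table (build GRCm38.p6), and Slc18a1 and Maob had none. The promoters shown are those of the enzymes of both branches whose RNA was measured at more than trace levels: Tph1 and Ddc, which have 2 alternative starts each, and Th. Each run is the 250 bases before the start, 5′ to 3′ on the strand of the gene, and all 5 lie on minus-strand genes. Capitals mark matches, on either strand, to TTGGC, a short site bound by NFI proteins, and to TGACGTCA, the cyclic AMP response element.

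Tph1, far start, chr7:46672538-46672787: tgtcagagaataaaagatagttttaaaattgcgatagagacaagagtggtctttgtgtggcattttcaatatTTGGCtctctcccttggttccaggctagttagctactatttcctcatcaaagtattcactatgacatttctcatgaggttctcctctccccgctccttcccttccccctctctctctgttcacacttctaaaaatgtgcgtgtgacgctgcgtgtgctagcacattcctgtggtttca
Tph1, near start, chr7:46667378-46667627: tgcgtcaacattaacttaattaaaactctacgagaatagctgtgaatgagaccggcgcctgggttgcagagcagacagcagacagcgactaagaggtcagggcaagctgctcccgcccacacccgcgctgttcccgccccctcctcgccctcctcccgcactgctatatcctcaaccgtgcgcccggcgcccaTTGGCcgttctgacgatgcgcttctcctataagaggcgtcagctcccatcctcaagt
Ddc, far start, chr11:11898145-11898394: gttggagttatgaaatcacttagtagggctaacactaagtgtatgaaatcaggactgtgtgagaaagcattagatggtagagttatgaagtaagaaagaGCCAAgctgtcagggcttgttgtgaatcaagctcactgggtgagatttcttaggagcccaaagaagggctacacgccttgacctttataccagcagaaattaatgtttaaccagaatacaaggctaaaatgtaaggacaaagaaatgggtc
Ddc, near start, chr11:11890409-11890658: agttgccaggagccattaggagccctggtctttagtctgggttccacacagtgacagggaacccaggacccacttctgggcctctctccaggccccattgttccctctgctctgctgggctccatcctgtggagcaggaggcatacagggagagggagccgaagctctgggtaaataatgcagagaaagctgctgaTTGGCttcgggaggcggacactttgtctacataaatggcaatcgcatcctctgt
Th, chr7:142899996-142900245: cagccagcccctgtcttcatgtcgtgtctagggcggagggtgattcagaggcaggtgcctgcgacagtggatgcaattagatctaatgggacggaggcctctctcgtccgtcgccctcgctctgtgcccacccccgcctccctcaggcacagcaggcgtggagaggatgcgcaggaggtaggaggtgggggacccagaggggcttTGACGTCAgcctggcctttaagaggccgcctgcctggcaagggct

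Each of the 4 Tph1 and Ddc windows held 1 TTGGC site. In Tph1 it lay at -178 to -174 and at -57 to -53 from the 2 starts, and in Ddc at -151 to -147, on the other strand, and at -54 to -50. The site is short, and 41.5% of the 32851 mouse promoters of this length held it, so its presence is a description and marks no binding. The response element of Th lay at -45 to -38, and 1.55% of promoters held that sequence. The near Tph1 window had 58.8% G and C with 19 CpG dinucleotides, whereas the far window had 43.6% with 5; the median promoter had 52.4% with 6. Gene-level TPM does not separate the starts, so which of them the tumors used is not known from these values.

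Ddc dominated the group in every library. It made up 73.5% to 94.6% of the summed TPM of the 10 genes, with a mean of 634 TPM over the 10 libraries. Slc18a1 followed with a mean of 57.1 TPM and stood second in 7 of the 10 libraries. Th had a mean of 24.0 TPM, Maob 10.6, Tph1 7.36, Maoa 7.14 and Slc18a2 1.69 TPM. Slc6a4, Tph2 and Dbh had means of 0.509, 0.0796 and 0.0258 TPM, and these 3 stayed below the mean of 1 TPM needed to enter the tests.

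**Figure D1:**
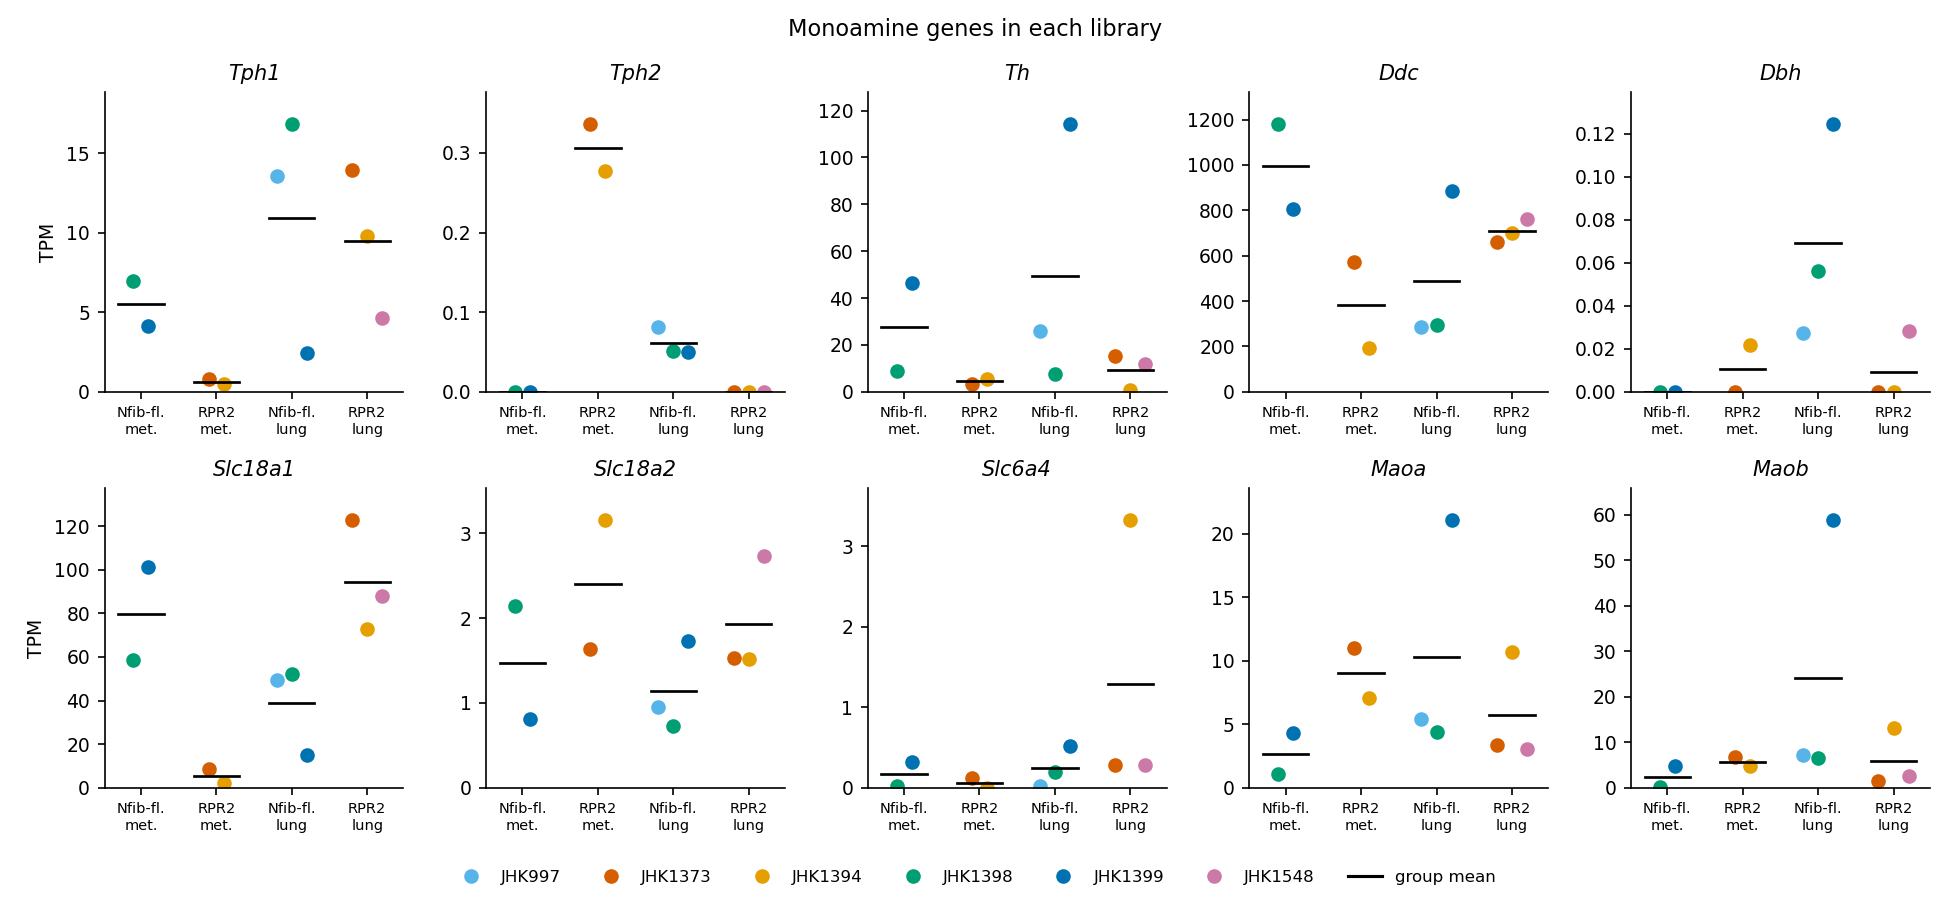
TPM of the 10 monoamine genes in each library, with 1 panel and 1 linear axis per gene; points are single libraries colored by mouse, columns are Nfib-floxed metastases, RPR2 metastases, Nfib-floxed lung tumors and RPR2 lung tumors, and bars are group means. In the RPR2 metastases Slc18a1 and Tph1 lie below every other library, while Th, Maoa and Maob are highest in the Nfib-floxed lung tumor of JHK1399.

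Slc18a1 encodes the vesicular monoamine transporter VMAT1, the form typical of endocrine and chromaffin cells. It was the one gene of the pathway with called differences. Slc18a1 had 58.6 and 101 TPM in Nfib-floxed metastases, against 8.45 and 2.28 TPM in RPR2 metastases. It had 49.6, 52.1 and 15.1 TPM in Nfib-floxed lung tumors, against 123, 72.7 and 87.9 TPM in RPR2 lung tumors. The RPR2 metastases were thus the lowest libraries of all, and neither overlapped any other group. Of all tested genes, 45.8% did not overlap between the metastases and 46.1% did not within RPR2 mice. The Nfib-floxed lung tumors all lay below the RPR2 lung tumors and below the Nfib-floxed metastases, where 14.5% and 22.5% of tested genes did not overlap.

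Differences were tested with limma on log2(TPM + 1) for 15503 genes whose mean reached 1 TPM, with Benjamini-Hochberg adjusted p under 0.05 as the threshold; a log2 change is on that scale. Between liver metastases, Slc18a1 was higher in Nfib-floxed mice, with means of 79.9 TPM against 5.37 TPM in RPR2 mice, a 14.9-fold ratio. The log2 change was 3.81 ± 0.65 (SE), with an adjusted p of 0.0179 by limma. It was the 1 gene called among the 7 of the group that were tested, where 2.04% of all tested genes were called. Without the Nfib-floxed metastasis of JHK1398, whose label was not tested, the log2 change was 4.20 and the call was lost. Without that of JHK1399 the adjusted p was 0.0818 and without the RPR2 metastasis of JHK1394 0.128, so this call needed each of those libraries.

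Within RPR2 mice, Slc18a1 was lower in metastases, with means of 5.37 TPM against 94.5 TPM in lung tumors. The lung tumors' mean was 17.6-fold that of the metastases. The log2 change was -4.07 ± 0.59, with an adjusted p of 0.00426 by limma, again the 1 call among 7 tested genes, where 5.61% of all genes were called. This call held in all 20 alternative settings and left-out libraries, with adjusted p between 0.00236 and 0.0497.

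Within Nfib-floxed mice the difference ran the other way without passing the test. The means were 79.9 TPM in metastases and 38.9 TPM in lung tumors, a log2 change of 1.15 ± 0.59 with an adjusted p of 0.585 by limma. None of the 7 tested genes was called in this comparison, where 0.123% of all genes were. The difference between the 2 tissue effects, the interaction of genotype and tissue, was 5.22 ± 0.84 on the log2 scale with an adjusted p of 0.0252. Of the 7 genes it was the 1 called, where 0.581% of all genes were. The interaction was not called with mouse as a fixed block (adjusted p = 0.0948 by limma), which bears on it because 4 mice gave both tissues. In all, 8 of 19 alternatives kept the call. It was also lost when any 1 of 6 libraries was left out, among them the JHK1398 metastasis (5.60, adjusted p = 0.0711), with adjusted p up to 0.103 over the alternatives.

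The 4 mice with both tissues can be read one by one. The log2 difference of the metastasis and the lung tumor of the same mouse was 0.17 in JHK1398 and 2.66 in JHK1399, both Nfib-floxed, against -3.71 in JHK1373 and -4.49 in JHK1394, both RPR2. The RPR2 mice thus had far less in the metastasis, while the Nfib-floxed values were far apart and that of JHK1398 was close to 0, since the lung tumor of JHK1399 had 15.1 TPM and that of JHK1398 52.1 TPM.

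**Figure D2:**
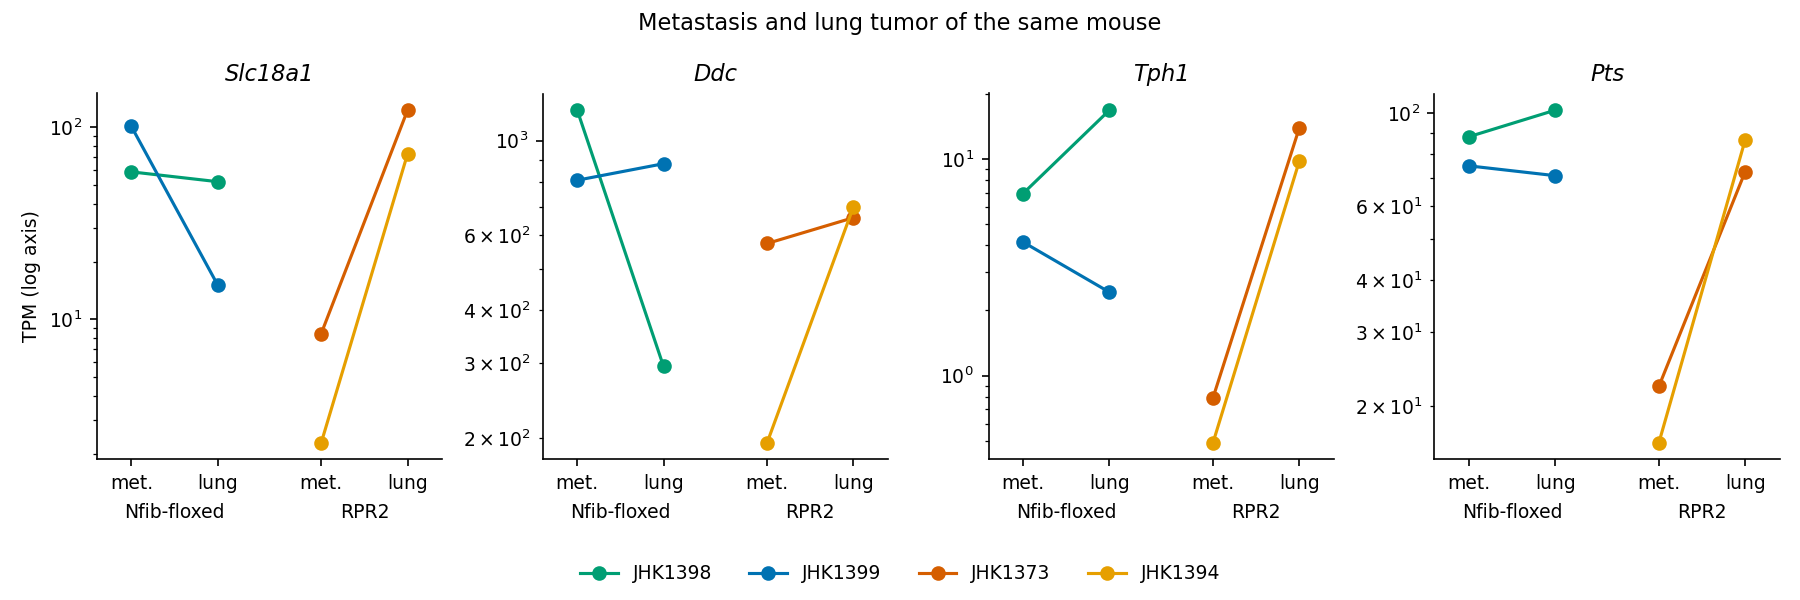
TPM on a log axis in the metastasis (left) and the lung tumor (right) of the same mouse for Slc18a1, Ddc, Tph1 and Pts; lines join the 2 libraries of a mouse, with Nfib-floxed mice to the left and RPR2 mice to the right in each panel. In both RPR2 mice the metastasis lies below the lung tumor for all 4 genes; in the 2 Nfib-floxed mice Slc18a1 lies higher in the metastasis.

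Between lung tumors the mean of Slc18a1 was 38.9 TPM in Nfib-floxed mice and 94.5 TPM in RPR2 mice. The log2 change was -1.41 ± 0.53 with an adjusted p of 0.595. The groups did not overlap, as was so for 14.5% of tested genes. No gene in the table was called between lung tumors (0.0%) by limma; before adjustment 1230 had a p under 0.05, Slc18a1 among them, and the smallest adjusted p was 0.272. The effects averaged over both tissues or both genotypes called none of the 7 genes, where 0.587% of all genes were called for genotype and 5.88% for tissue. For Slc18a1 the mean genotype effect was 1.21 (adjusted p = 0.252) and the mean tissue effect -1.46 (adjusted p = 0.0721).

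**Figure D3:**
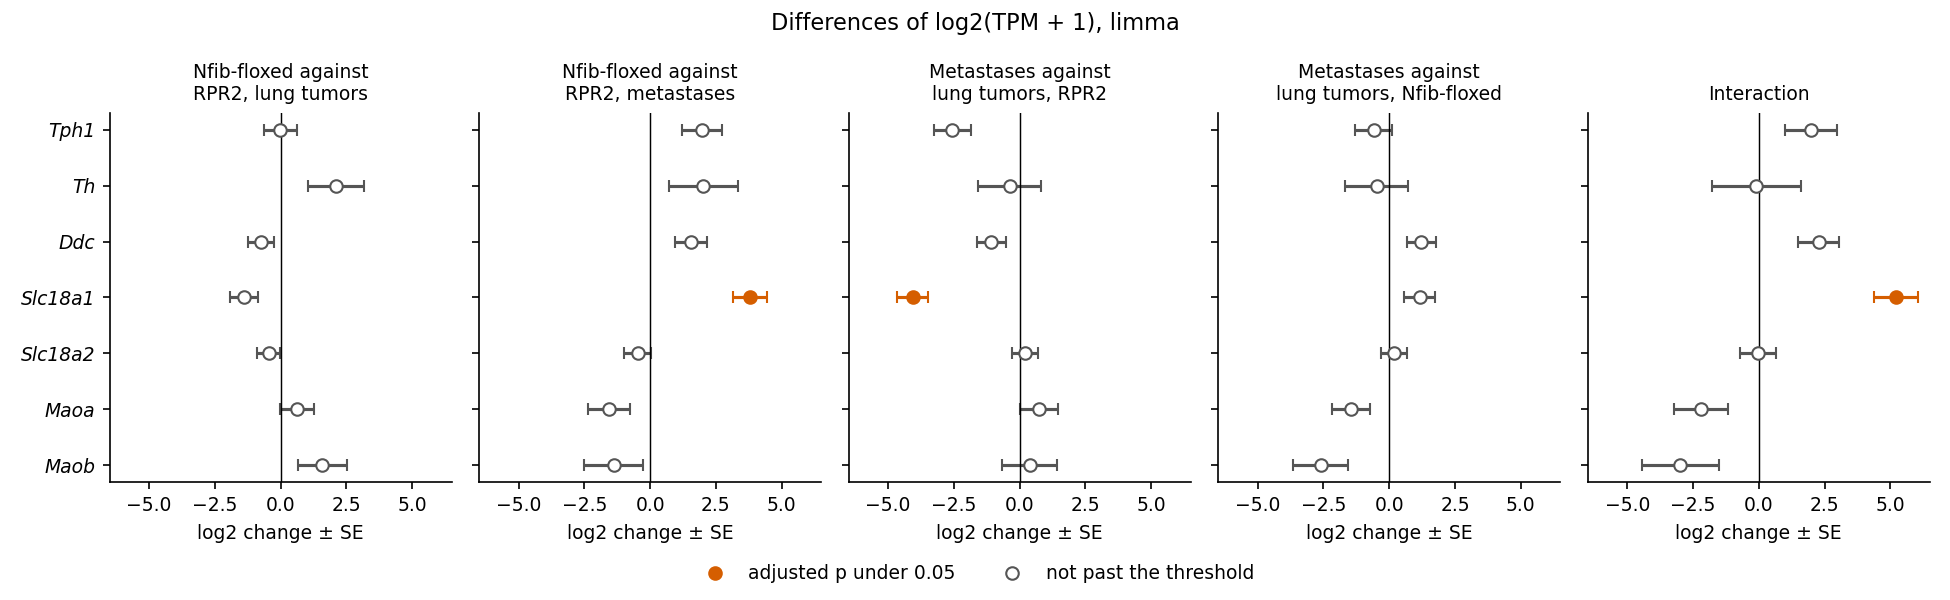
Log2 changes of log2(TPM + 1) with their standard errors for the 7 tested genes in 5 comparisons; filled points passed an adjusted p under 0.05 and open points did not, and a positive value means higher in the group named first. Slc18a1 is the gene with filled points, at 3.81, -4.07 and 5.22.

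Slc18a1 lies on chromosome 8 at 69037711 to 69089235 (GRCm38), on the minus strand. It overlaps the ATPase subunit gene Atp6v1b2 by 590 bases and the antisense gene Gm15716 by 18669 bases, both on the opposite strand. The labels do not say whether strand was kept, so reads from overlapping genes cannot be told apart by strand. Atp6v1b2 itself, with up to 219 TPM, had log2 changes of 0.33 between metastases and -0.54 within RPR2 mice (adjusted p = 0.523), neither called. None of the 9 other tested genes within 500 kb of Slc18a1 was called in any of the 3 comparisons that called it. Atp6v1b2, Ints10 and Csgalnact1 changed in the same direction as Slc18a1 in all 3, the last 2 picked after their values were seen. The interaction was 1.04 for Atp6v1b2 and 0.83 for Ints10 (adjusted p = 0.631 and 0.701 by limma). Csgalnact1 lies 303 kb away. Its log2 change was 1.31 between metastases (adjusted p = 0.327 by limma) and -1.85 within RPR2 mice (adjusted p = 0.0576). Its interaction was 2.30 (adjusted p = 0.258).

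The other vesicle transporter, Slc18a2 (VMAT2), the form of monoamine neurons, was low throughout. It had 2.14 and 0.805 TPM in Nfib-floxed metastases, against 1.64 and 3.16 TPM in RPR2 metastases. It had 0.950, 0.733 and 1.73 TPM in Nfib-floxed lung tumors, against 1.53, 1.51 and 2.73 TPM in RPR2 lung tumors. All 4 groups overlapped each other, and no comparison was called. Slc18a1 gave 96.5% and 99.2% of the 2 transporters' summed TPM in Nfib-floxed metastases, against 83.8% and 42.0% in RPR2 metastases. In the lung tumors its share was 89.7% to 98.6% in Nfib-floxed mice and 97.0% to 98.8% in RPR2 mice. Only in the RPR2 metastasis of JHK1394 was Slc18a2 the more abundant of the pair.

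Tph1, the tryptophan hydroxylase of peripheral endocrine cells, was also lowest in the RPR2 metastases. It had 6.94 and 4.14 TPM in Nfib-floxed metastases, against 0.791 and 0.490 TPM in RPR2 metastases. It had 13.6, 16.8 and 2.43 TPM in Nfib-floxed lung tumors, against 13.9, 9.80 and 4.64 TPM in RPR2 lung tumors. The RPR2 metastases overlapped neither the Nfib-floxed metastases nor the RPR2 lung tumors, as was so for 45.8% and 46.1% of tested genes. The lung tumors of the 2 genotypes overlapped widely. Within RPR2 mice the log2 change was -2.57 ± 0.70, which missed the threshold (adjusted p = 0.0614 by limma). Between metastases it was 1.97 ± 0.77 (adjusted p = 0.281), and the interaction was 1.98 (adjusted p = 0.592).

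Tph2, the tryptophan hydroxylase of serotonergic neurons, was listed at 0 in both Nfib-floxed metastases, against 0.336 and 0.277 TPM in RPR2 metastases. It had at most 0.0808 TPM in Nfib-floxed lung tumors and was listed at 0 in all 3 RPR2 lung tumors. These levels are close to 0 and did not enter the tests.

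Th, tyrosine hydroxylase, varied widely from mouse to mouse. It had 8.73 and 46.6 TPM in Nfib-floxed metastases, against 3.46 and 5.32 TPM in RPR2 metastases. It had 26.1, 7.61 and 114 TPM in Nfib-floxed lung tumors, against 15.3, 0.580 and 11.9 TPM in RPR2 lung tumors. Both libraries of JHK1399 had the highest value of their group, and the lung tumor groups overlapped. The log2 change between lung tumors was 2.11 ± 1.06 (adjusted p = 0.632 by limma) and between metastases 2.02 (adjusted p = 0.628), and the mean genotype effect was 2.05 (adjusted p = 0.326). Of the summed TPM of Tph1, Tph2 and Th, Th made up between 5.6% and 97.9% depending on the library. The RNA balance of the 2 branches at their first step thus differed between tumors of the same group.

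Ddc, which serves both branches, had 1180 and 807 TPM in Nfib-floxed metastases, against 573 and 195 TPM in RPR2 metastases. It had 286, 295 and 883 TPM in Nfib-floxed lung tumors, against 659, 699 and 762 TPM in RPR2 lung tumors. The metastases of the 2 genotypes did not overlap, as was so for 45.8% of tested genes. Nor did the RPR2 metastases and RPR2 lung tumors, as was so for 46.1%. The Nfib-floxed lung tumors spanned the RPR2 values on both sides. The log2 change was 1.54 ± 0.60 between metastases (adjusted p = 0.279 by limma) and -1.07 within RPR2 mice (adjusted p = 0.334). Within Nfib-floxed mice it was 1.21 (adjusted p = 0.533), and the interaction was 2.29 (adjusted p = 0.321); none was called.

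Ddc and Slc18a1 did not keep a fixed ratio. Ddc was 20.1 and 7.99 times Slc18a1 in Nfib-floxed metastases, against 67.9 and 85.4 times in RPR2 metastases. In lung tumors it was 5.77, 5.66 and 58.4 times Slc18a1 in Nfib-floxed mice and 5.37, 9.62 and 8.67 times in RPR2 mice. High ratios therefore occurred in both RPR2 metastases and in the Nfib-floxed lung tumor of JHK1399, and the other 7 libraries lay at 20.1 or below.

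Dbh, which turns dopamine into noradrenaline, reached 0.125 TPM at most and was listed at 0 in 5 libraries, including both Nfib-floxed metastases. Slc6a4, the serotonin transporter, reached 3.32 TPM in JHK1394's RPR2 lung tumor, had at most 0.524 TPM in the other 9 libraries and was listed at 0 in 1 of them. The RNA of Dbh and of Slc6a4 was thus far below that of Ddc in these tumors, and neither enzyme activity nor uptake was measured.

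The monoamine oxidases are neighbors on the X chromosome: Maoa at 16619698 to 16687818 on the plus strand and Maob at 16709282 to 16817366 on the minus strand, tail to tail across 21.5 kb. Maoa, which prefers serotonin and noradrenaline, had 1.08 and 4.30 TPM in Nfib-floxed metastases, against 10.98 and 7.04 TPM in RPR2 metastases. It had 5.38, 4.39 and 21.1 TPM in Nfib-floxed lung tumors, against 3.41, 10.7 and 3.06 TPM in RPR2 lung tumors. Here the Nfib-floxed metastases lay below both the RPR2 metastases and the Nfib-floxed lung tumors. Of tested genes, 45.8% did not overlap between metastases and 22.5% did not within Nfib-floxed mice. The log2 changes were -1.57 (adjusted p = 0.467) and -1.46 (adjusted p = 0.567) in those 2 comparisons, and the interaction was -2.19 (adjusted p = 0.541), all by limma and none called.

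Maob, which prefers phenylethylamine, had 0.128 and 4.67 TPM in Nfib-floxed metastases, against 6.68 and 4.73 TPM in RPR2 metastases. It had 7.25, 6.43 and 58.8 TPM in Nfib-floxed lung tumors, against 1.56, 13.2 and 2.69 TPM in RPR2 lung tumors. The Nfib-floxed metastases again lay below both of those groups, by a narrow gap of 4.67 against 4.73 TPM at the RPR2 end. The log2 change within Nfib-floxed mice was -2.61 ± 1.03 (adjusted p = 0.473 by limma) and between metastases -1.39 (adjusted p = 0.736). Between lung tumors it was 1.59 (adjusted p = 0.656), the interaction was -2.98 (adjusted p = 0.572) and the mean tissue effect -1.12 (adjusted p = 0.438). The ratio of Maob to Maoa was 0.119 and 1.09 in Nfib-floxed metastases, against 0.608 and 0.672 in RPR2 metastases. In lung tumors it was 1.35, 1.47 and 2.79 in Nfib-floxed mice, all above the 0.459, 1.24 and 0.878 of RPR2 mice.

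Between the metastases of the 2 genotypes, most tested synthesis and storage genes lay on the opposite side from the oxidases. The storage gene Slc18a2 overlapped between them (log2 change -0.48, adjusted p = 0.851 by limma). Tph2, outside the main test and with levels near 0, was lower in both Nfib-floxed metastases. Of the 7 tested genes, Ddc, Tph1, Th and Slc18a1 were each higher in both Nfib-floxed metastases than in both RPR2 metastases, and Maoa and Maob were each lower. These are 6 of 7 tested genes, in a comparison where 45.8% of all tested genes did not overlap. Of these, the difference of Slc18a1 passed the test. The median log2 change of the 7 tested genes was 1.54, against 0 over all tested genes, and 3 of the 7 had an unadjusted p under 0.05, as did 1988 of the 15503 genes. Within RPR2 mice 3 of the 7 tested genes, Ddc, Tph1 and Slc18a1, were lower in every metastasis than in every lung tumor, where 46.1% of tested genes did not overlap. The median of the 7 there was -0.38, against -0.15 over all tested genes. The 2 comparisons share the RPR2 metastases, so they are not separate evidence.

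**Figure D4:**
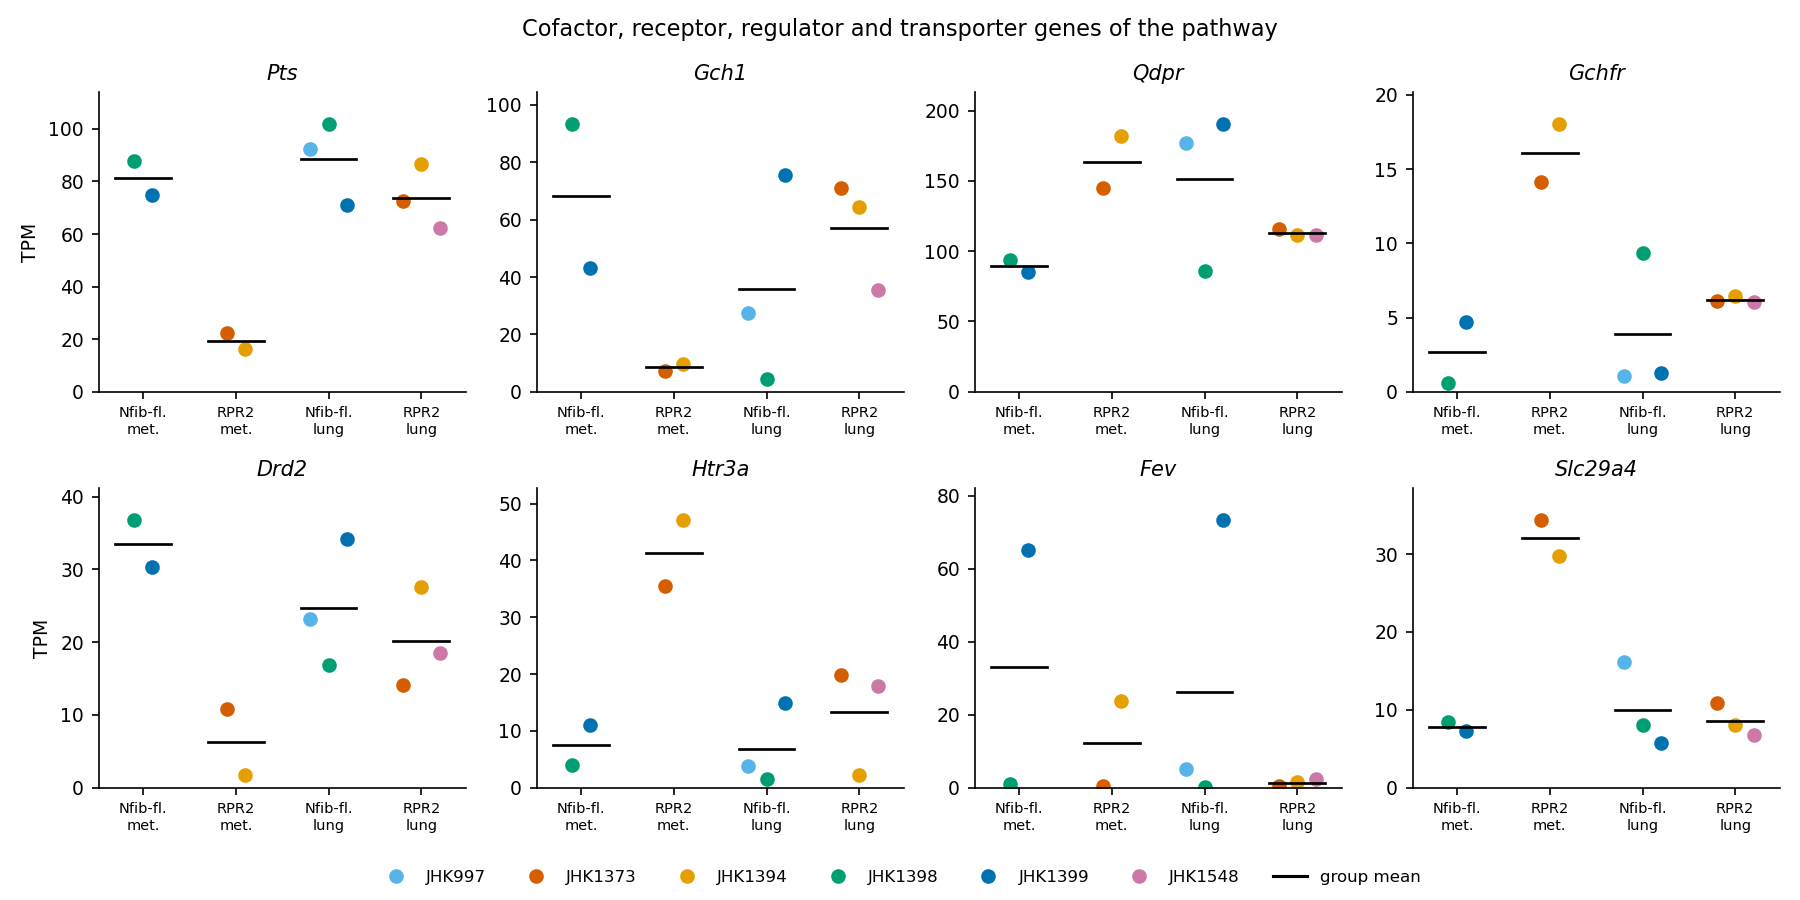
TPM in each library of 8 genes around the pathway, on linear axes: the cofactor genes Pts, Gch1, Qdpr and Gchfr in the upper row, and the dopamine receptor Drd2, the serotonin receptor Htr3a, the regulator Fev and the transporter Slc29a4 in the lower row; points are libraries colored by mouse and bars are group means. Pts is at 16.3 and 22.3 TPM in the RPR2 metastases and at 62.2 TPM or more in the other 8 libraries.

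The genes that make and recycle tetrahydrobiopterin were all expressed, 8 of 8 above the threshold for testing. Between metastases 3 of 8 had a positive log2 change (median -0.42), and 1 was called, where 2.04% of all genes were. Within RPR2 mice 5 of 8 had one (median 0.21), and 1 was called, where 5.61% were. Qdpr and Gchfr were picked after their values were seen. Their means were 89.6 and 2.66 TPM in Nfib-floxed metastases, against 163.5 and 16.1 TPM in RPR2 metastases. Pts, the synthase of the second step, had 88.0 and 74.9 TPM in Nfib-floxed metastases, against 22.3 and 16.3 TPM in RPR2 metastases. It had 92.5, 102 and 71.0 TPM in Nfib-floxed lung tumors, against 72.6, 86.5 and 62.2 TPM in RPR2 lung tumors. As for Slc18a1, the RPR2 metastases stood alone at the low end. Between metastases Pts was higher in Nfib-floxed mice by a log2 change of 2.03 ± 0.32 (adjusted p = 0.0116 by limma), a 4.22-fold ratio of means. Within RPR2 mice it was lower in metastases by a log2 change of -1.88 ± 0.29 (adjusted p = 0.00538). Its mean genotype effect was 1.15 ± 0.21 (adjusted p = 0.0482) and its mean tissue effect -0.99 ± 0.21 (adjusted p = 0.0221), while the interaction of 1.78 was not called (adjusted p = 0.130). The call between metastases was lost without the JHK1398 metastasis (1.92, adjusted p = 0.0723) and without the RPR2 metastasis of JHK1394 (adjusted p = 0.107), and the call within RPR2 mice was lost without that JHK1394 library (adjusted p = 0.0682). The mean genotype effect kept its call in 8 of 18 alternatives and the mean tissue effect in 11 of 19, with adjusted p up to 0.197 and 0.112.

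The first cofactor enzyme, Gch1, is rate limiting, and it and the 3 further genes named in this paragraph were picked after their values were seen. Gch1 had 93.3 and 43.3 TPM in Nfib-floxed metastases, against 7.35 and 9.57 TPM in RPR2 metastases. It had 27.5, 4.35 and 75.5 TPM in Nfib-floxed lung tumors, against 71.2, 64.5 and 35.4 TPM in RPR2 lung tumors. Its low values were thus not limited to the RPR2 metastases, and no comparison was called (adjusted p = 0.202 between metastases and 0.129 within RPR2 mice). The dopamine receptor gene Drd2 had 36.8 and 30.3 TPM in Nfib-floxed metastases, against 10.8 and 1.70 TPM in RPR2 metastases, with a log2 change of 2.61 and an adjusted p of 0.0673. The serotonin-gated channel gene Htr3a had 3.99 and 11.1 TPM in Nfib-floxed metastases, against 35.5 and 47.1 TPM in RPR2 metastases, and was not called either. Fev, a transcription factor of serotonin neurons, had 65.1 and 73.3 TPM in the metastasis and the lung tumor of JHK1399 and 23.8 TPM in the RPR2 metastasis of JHK1394, and at most 5.01 TPM in the other 7 libraries.

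The remaining lists around the pathway are counted here. Of all tested genes, 0.0% to 5.88% were called over the 7 comparisons. Of 28 monoamine receptors, 7 had a mean of at least 1 TPM and none was called in any of the 7 comparisons. Of 15 transcription factors of monoamine neurons, 6 were tested and none was called. Of 17 other amine enzymes, 11 were tested. Within RPR2 mice 2 of them were called, where 5.61% of all genes were. The mean tissue effect also called 2, where 5.88% of all genes were called. Tdo2, which breaks down tryptophan in the liver, was higher in RPR2 metastases than in RPR2 lung tumors, with a log2 change of 3.80 (adjusted p = 0.0101 by limma). That call was kept in 17 of 20 alternatives. It was lost without either RPR2 metastasis (JHK1373 or JHK1394) and with 1 form of the mouse block (adjusted p = 0.0505). Of 10 other transporters of amines and their precursors, 6 were tested. Within RPR2 mice 2 of them were called, where 5.61% of all genes were. Between metastases 1 was called, where 2.04% were, and the mean tissue effect called 1, where 5.88% were. Slc29a4, the plasma membrane monoamine transporter, had 34.4 and 29.7 TPM in RPR2 metastases and 10.9, 8.09 and 6.72 TPM in RPR2 lung tumors, with a log2 change of 1.81 ± 0.44 (adjusted p = 0.0402). That call was kept in 10 of 20 alternatives and was lost without any 1 of the RPR2 libraries, with adjusted p up to 0.251.

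Markers of other cells moved with these differences and are given beside them. The summed TPM of 10 hepatocyte markers was 108 and 2784 in Nfib-floxed metastases, against 9253 to 9673 in RPR2 metastases. It was 98.2 to 1251 in Nfib-floxed lung tumors and 156 to 443 in RPR2 lung tumors. Of these lung tumor sums, Ttr alone reached 1107 TPM in Nfib-floxed mice and 280 TPM in RPR2 mice. Alb reached 47.9 and 109.5 TPM there, both genes picked after their values were seen. The RPR2 metastases thus had the highest hepatocyte sums, and their part in the levels of Slc18a1, Tph1 and Pts was not tested. In these bulk pieces, fewer cells of a type and less RNA per cell cannot be told apart.

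The summed TPM of 12 neuroendocrine markers was 7943 and 62280 in Nfib-floxed metastases, against 2669 to 3846 in RPR2 metastases. It was 11230 to 77240 in Nfib-floxed lung tumors and 13590 to 22620 in RPR2 lung tumors, so this sum was lowest in the same 2 libraries as Slc18a1. The sum rests largely on a few abundant genes: Calca, the calcitonin gene, had 5470 and 57530 TPM in Nfib-floxed metastases, against 545 and 1410 TPM in RPR2 metastases. Gene by gene the list was mixed: 10 of 12 markers had a positive log2 change between metastases (median 0.84), and within RPR2 mice 4 of 12 had a positive change (median -0.88). The part of neuroendocrine cell content in the Slc18a1 differences was not tested. Within RPR2 mice 1 of the 12 markers was called, where 5.61% of all genes were. It was the granule protein gene Resp18, lower in metastases by a log2 change of -2.82 (adjusted p = 0.0180 by limma). That call was not followed through the alternatives. Insm1, Ncam1, Uchl1 and Dll3, named after their values were seen, had higher mean TPM in RPR2 metastases than in RPR2 lung tumors.

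Mast cells also hold Tph1 and amines, and their markers were nearly absent. The 8 mast cell markers summed to 0 in both Nfib-floxed metastases, to 0.118 and 0.755 TPM in RPR2 metastases and to at most 1.32 TPM in any library. The sum of 8 platelet markers was 13.3 to 65.4 TPM in Nfib-floxed metastases, against 23.5 to 58.8 TPM in RPR2 metastases, and 29.3 to 70.1 TPM in the lung tumors. Normal lung epithelium markers summed to at most 227 TPM in any metastasis, against up to 58030 TPM in the lung tumors of Nfib-floxed mice and 66380 TPM in those of RPR2 mice. Their part, and that of macrophages, fibroblasts and endothelium, in the comparisons of metastases with lung tumors was not tested.

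Nfib RNA itself did not divide the genotypes cleanly. It had 46.1 and 41.3 TPM in Nfib-floxed metastases, against 62.8 and 643 TPM in RPR2 metastases. It had 38.6, 38.0 and 26.5 TPM in Nfib-floxed lung tumors, against 85.3, 28.3 and 118 TPM in RPR2 lung tumors. The lung tumor groups overlapped through the RPR2 tumor of JHK1394, and a gene-level TPM also counts reads from exons that a floxed allele keeps.

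For the 6 members with a mean of at least 5 TPM, the genes whose profiles over the 10 libraries lay closest were listed, as a description over the 11574 genes that averaged 5 TPM or more. Closeness was the mean absolute difference of log2(TPM + 1) profiles, each centered on its own mean. For Slc18a1 they were Galnt3 (0.403), Artn (0.441) and Kdf1 (0.458), where Slc18a1 itself deviated from its mean by 1.36 on average. For Tph1 they were Eps8l2 (0.341), Tnfrsf21 (0.348) and Prr15 (0.362), against its own deviation of 1.03. For Ddc they were Tpd52 (0.288), Uqcc1 (0.311) and Atp4a (0.33), against 0.674.

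For Th they were Gjd2 (0.574), Foxo1 (0.672) and Sez6l (0.692), against its own deviation of 1.3. For Maoa the closest were Creg1 (0.295), Aldh3a2 (0.316) and Lims2 (0.325), against 0.734. For Maob they were Kifc3 (0.457), Sdc2 (0.463) and Il34 (0.467), against 1.02.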

How the data were processed

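RNA-seq was available for 10 libraries from 6 mice, grouped by the genotype, tissue and mouse tag in the labels. Per the labels' protocols, polyA RNA was selected and libraries were made with NEBNext Ultra II; the submitters' processing notes name Salmon 0.12.0, genome build GRCm38, bcl2fastq 2.20 and R 4.1.0. The table deposited by the authors holds TPM per gene; each library sums to 1000000, so depth is unknown and no counting interval is given. Salmon shares reads among similar transcripts, so overlapping or similar genes are uncertain, and the notes name no annotation version.

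The test was that of limma 3.58.1 (R 4.3.3), run on log2(TPM + 1) for the 15503 of 35288 genes whose mean reached 1 TPM. The 4 group means were fitted over all libraries (two-sided moderated test with a mean trend, residual df 6, prior df 4.56), with Benjamini-Hochberg adjustment over all tested genes and a threshold of 0.05. Because log2(TPM + 1) compresses low values, changes of low genes are understated. Metastasis and lung tumor of the same mouse were treated as independent, except in the mean genotype effect, where mouse was a random effect (correlation 0.0509). Paired libraries come from the same mouse per the labels; across genes, how far each library lay from its group mean correlated within mice at -0.0229 to 0.0489. The procedure was tested on simulated data with 200 changed genes.

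The 10 genes, the lists around them and their tests were chosen with earlier results of these data known. All 10 genes were described; from the lists, genes past the threshold were named, except a few that are not reported here, and any further gene named is said to be picked after its values were seen. Positions come from GENCODE vM21, promoters from RefSeq (GRCm38.p6). Alternatives were other pseudocounts (0.1 and 5), other filters (none and 5 TPM), median centring and quantile normalization. Further ones were only the groups compared, mouse as a random or a fixed block, and each library left out. Python 3.11.15 with numpy 2.4.6, pandas 2.3.3 and matplotlib 3.10.9 served for the other steps.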

Additional observations from a re-analysis of the deposited data

Results flagged for a closer look

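For Slc18a1 the tissue effect differed between the genotypes by 5.22 on the log2 scale (interaction, adjusted p = 0.0252 by limma, and 0.0948 with mouse as a fixed block). By mouse, the metastasis minus the lung tumor was 0.167 and 2.66 in the Nfib-floxed mice JHK1398 and JHK1399, against -3.71 and -4.49 in the RPR2 mice JHK1373 and JHK1394. All 4 mice that gave both tissues are included, and the value of JHK1398 is close to 0.

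Tph2 also split by genotype, at levels of at most 0.336 TPM. The metastasis minus the lung tumor was -0.0726 and -0.0701 in the Nfib-floxed mice JHK1398 and JHK1399, against 0.418 and 0.353 in the RPR2 mice JHK1373 and JHK1394. This difference did not enter the main test, since Tph2 did not reach a mean of 1 TPM. With no filter its interaction was called, on values of 0 in both Nfib-floxed metastases and all 3 RPR2 lung tumors. No group held 4 libraries, so no search for single outlying libraries was made.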

How the results depend on the processing

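The number of the 7 tested genes past the threshold was 0 between lung tumors and 0 within Nfib-floxed mice under every alternative run. Directions were followed for member log2 changes of at least 1 either way and for calls in the surrounding lists without cell type markers. None of those reversed. Directions of other named changes, such as those of Slc18a2, Drd2, Csgalnact1 and Resp18, were not checked. Between metastases (1 gene) the count was 2 with no filter, which adds Tph2, and 0 with only the 2 groups compared (Slc18a1 adjusted p = 0.0817); leaving out 1 library gave 0 to 1. Within RPR2 mice (1 gene) it was 2 with no filter, adding Tph2, and 2 with only the 2 groups compared or a pseudocount of 0.1, adding Tph1; leaving out 1 library gave 1 to 2. For the interaction (1 gene) it was 0 under median centring, 0 under quantile normalization and 0 with mouse as a fixed replicate block (adjusted p = 0.0948); with no filter Tph2 was called in place of Slc18a1 (adjusted p = 0.0644). Leaving out 1 library gave 0 to 1 there, and dropping the JHK1394 and JHK1398 lung tumors together, a setting chosen after seeing the data, gave 0. For the mean tissue effect (0 genes) leaving out 1 library gave 0 to 2, the 2 being Slc18a1 (adjusted p = 0.0236) and Tph1 without the Nfib-floxed lung tumor of JHK1399. The Tph2 calls rest on at most 0.336 TPM, with 0 in both Nfib-floxed metastases and all 3 RPR2 lung tumors. The replicate block by mouse changed no other count. As a fixed block it gave Slc18a1 within RPR2 mice a log2 change of -4.10 (adjusted p = 0.0217 by limma). For 26 single changes of Ddc, Tph1, Th, Slc18a1, Maoa and Maob, 478 of 499 values under the alternatives kept direction and side of the threshold, 15 lost a call and 6 gained one; for genes called in the surrounding lists 166 of 230 did and 64 lost a call, Pts keeping its call between metastases in 16 of 19. The cause of these shifts was not tested. With 2 metastases per genotype, a change of a gene as variable as Th could not be resolved.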
